A study of Mus musculus with 10 samples.

Results

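The expression of 36 cell cycle and DNA replication genes was examined in whole lungs of mice whose lung epithelium was targeted for loss of IRE1α, the endoplasmic reticulum kinase and ribonuclease encoded by Ern1. The 5 EpithelialKO mice were homozygous for the floxed Ern1 gene and carried Cre on one Shh allele (Shh Cre/+ IRE1α fl/fl), a locus active in the developing lung epithelium. The 5 Flox mice carried the same floxed alleles with no Cre (Shh +/+ IRE1α fl/fl), so both groups were homozygous for the floxed gene. The groups thus differed in Cre and in an Shh allele as well as in the targeting of Ern1. Between these groups the 3 cannot be told apart. The labels give neither age, sex nor strain background. The members were taken by symbol as genes with established roles in the cell cycle, 11 of them acting in S phase and 25 in G2 and mitosis (G2/M). All 36 were among the 27179 genes of the count table, and all 36 passed the filter on low counts, which left 15301 genes.

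Cells enter S phase when E2F transcription factors are released from the retinoblastoma protein and induce genes for the replicative helicase, the sliding clamp and nucleotide synthesis. Genes of G2 and mitosis are transcribed later in the cycle, when the MuvB complex, with B-MYB and FOXM1, replaces the repressive DREAM complex at promoter elements called CHR, often next to CCAAT boxes bound by NF-Y. In resting tissue most of these genes are repressed, and dividing cells of any lineage can express them. In such bulk samples, fewer cells of a type and less RNA per cell cannot be told apart.

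Each mouse had between 14983829 and 21224412 counts. Xist reached 3949 counts in Flox mouse 4 and 4866 in Flox mouse 6, both with 0 counts over Ddx3y, Eif2s3y, Kdm5d and Uty. Among the remaining mice, Xist counts ran from 2 to 61 and the Y-linked sum from 2462 to 3575, so the groups were not matched on these genes. Ern1 stood at 17.3 ± 6.52 CPM (counts scaled to the library total after TMM adjustment) in EpithelialKO lungs and 16.8 ± 5.28 CPM in Flox lungs (SD, n = 5 each). Its counts cover the whole gene and all lung cells and do not check the genotype labels. Markers of epithelial, endothelial, stromal and immune cells were all detected, while markers of basal cells, which are rare outside the large airways, were at 1.37 to 11.2 summed CPM in EpithelialKO lungs and 0.732 to 2.89 in Flox lungs.

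Elements known for the 2 phases were found in part of the members' promoters. RefSeq windows, from 250 bases before to 50 after an annotated start (GRCm38.p6), were found for 30 of the 36 members, with 33 windows in all; Aurkb, Ccna2, Foxm1, Kif20a, Mcm4 and Tpx2 had none in the table used. They were searched on both strands for the CHR, spelled TTTGAA or TTCGAA, and for the CCAAT box. The E2F letters were TTGGCGC and also TTCGCGC, as well as TTCCCGC and likewise TTGCCGC. The GC box was searched as GGGCGG. E2F letters can overlap a CCAAT box. A CHR match occurred in 18 of 22 G2/M windows (81.8%) and in 2 of 11 S-phase windows (18.2%), against 19.2% of all 32851 windows of that length. The 18 G2/M windows with a CHR match all held a CCAAT box as well, a combination found in 7.52% of all windows. E2F matches occurred in 6 of 11 S-phase windows (54.5%) and in 6 of 22 G2/M windows (27.3%), against 9.57% of all windows. GC boxes did not set the phases apart, with 10 of 11 S-phase and 19 of 22 G2/M windows, although only 35.7% of all windows held one. A match describes letters and not a bound site. Pairs of overlapping windows of 1 gene (Ect2, Prc1) share sequence. Mcm7 also counts with 2 windows, both with an E2F match. E2f1, Mcm2, Pcna, Tk1 and Tyms had no E2F match, and Birc5, Ccnb1, Cenpe and Nusap1 had no CHR match.

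Promoters of 4 members described below are shown for these elements, as the 250 bases before the start, read 5′ to 3′ on the strand of the gene, with matches to the E2F, CCAAT and CHR letters in capitals. They are the members with the most kinds of match, then the most matches, per phase among those given in full whose annotated start lies within 30 bases of the outer end of the gene. Rrm2 (chr12:24708004-24708253, plus strand) and Mcm2 (chr6:88898781-88899030, minus strand) represent S phase, the first with an E2F match and the second with a CHR match beside the CCAAT box. Top2a (chr11:99024190-99024439, minus strand) and Hmmr (chr11:40733438-40733687, minus strand) represent G2/M. Top2a holds 6 CCAAT boxes and 4 CHR matches in this stretch, and Hmmr 5 CCAAT boxes and 1 E2F match. The CHR match of the Hmmr window lies at bases 9 to 14 after the start, beyond the printed stretch.
Rrm2: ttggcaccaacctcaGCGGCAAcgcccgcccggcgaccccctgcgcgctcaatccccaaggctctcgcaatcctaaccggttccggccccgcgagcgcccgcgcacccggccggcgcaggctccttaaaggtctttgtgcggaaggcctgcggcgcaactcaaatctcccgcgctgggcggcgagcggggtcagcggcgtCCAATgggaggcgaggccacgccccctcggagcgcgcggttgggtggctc
Mcm2: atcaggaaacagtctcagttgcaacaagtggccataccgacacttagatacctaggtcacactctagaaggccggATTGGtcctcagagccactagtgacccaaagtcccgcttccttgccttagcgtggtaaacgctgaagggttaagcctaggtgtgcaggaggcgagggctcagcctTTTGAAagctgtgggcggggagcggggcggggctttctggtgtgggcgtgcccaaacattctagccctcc
Top2a: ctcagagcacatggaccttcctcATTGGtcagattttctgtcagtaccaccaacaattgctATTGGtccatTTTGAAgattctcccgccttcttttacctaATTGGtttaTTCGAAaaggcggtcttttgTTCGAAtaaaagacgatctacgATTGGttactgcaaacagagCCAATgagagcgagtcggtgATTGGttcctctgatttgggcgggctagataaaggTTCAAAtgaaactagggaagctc
Hmmr: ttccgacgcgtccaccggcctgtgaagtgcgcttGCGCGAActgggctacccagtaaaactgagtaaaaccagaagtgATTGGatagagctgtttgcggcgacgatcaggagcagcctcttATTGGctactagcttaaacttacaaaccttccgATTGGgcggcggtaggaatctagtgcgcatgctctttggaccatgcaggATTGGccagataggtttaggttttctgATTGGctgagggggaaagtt

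**Figure D1:**
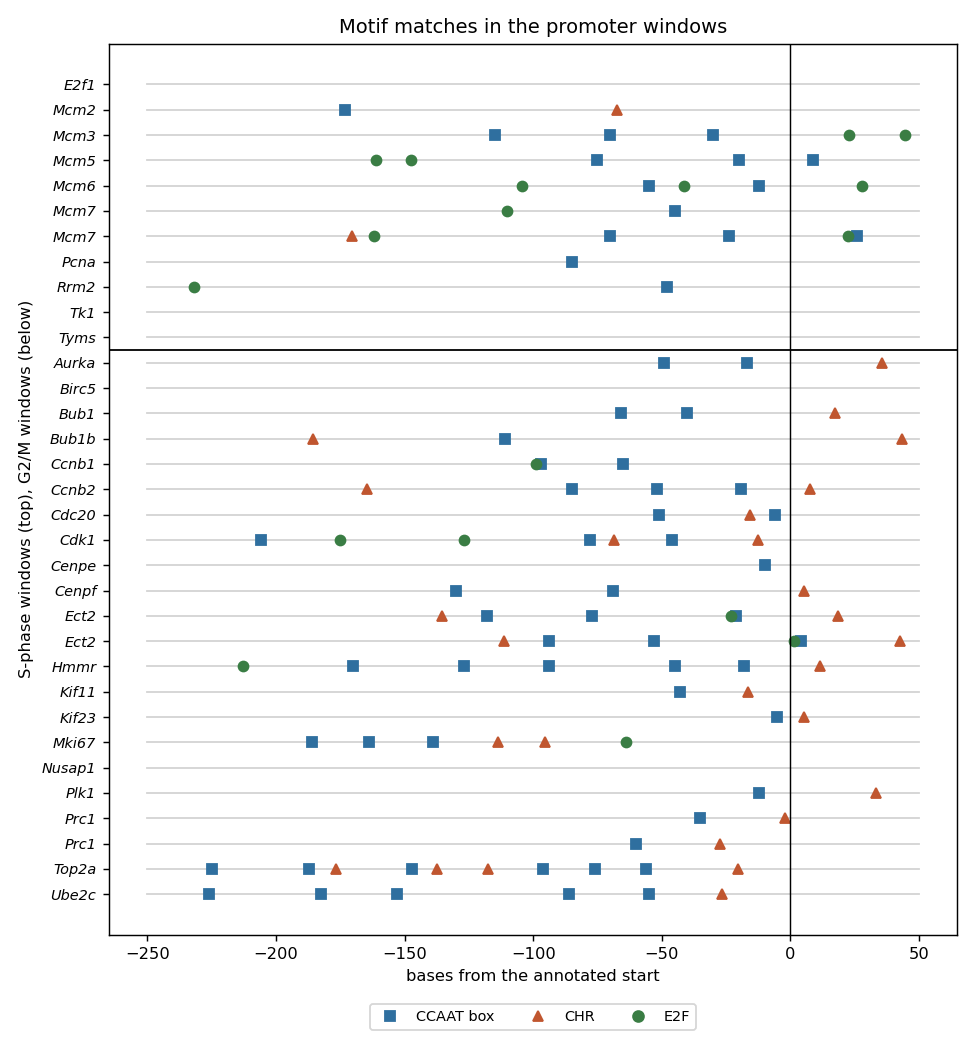
Positions of CCAAT box, CHR and E2F matches in the 33 promoter windows of 30 members, in bases from the annotated start, with the 11 S-phase windows above the line and the 22 G2/M windows below it. CHR matches (triangles) lie in 18 of the G2/M windows and 2 of the S-phase windows, and 17 of the 27 CHR matches in G2/M windows lie within 50 bases of the start.

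S-phase genes were the more abundant of the 2 phases. Per kilobase of exon, so that levels of different genes can be compared, S-phase members lay between 2.55 and 71.9 CPM per kilobase with a median of 4.28, and G2/M members between 0.328 and 4.12 with a median of 1.43, over all 10 mice. Pcna, Mcm7, Mcm6, Mcm3 and Mcm4 took the first 5 places in this order, at 71.9, 12.5, 8.14, 8.11 and 7.07 CPM per kilobase. Cenpf and Cenpe, kinetochore proteins with very long transcripts, took the last places at 0.328 and 0.377. Counts per member and mouse ran from 37 to 2276 in S phase and from 10 to 586 in G2/M. The spread between mice of a group exceeded counting error for all 36 members. Its median coefficient of variation was 20.1% in S-phase members, against 6.15% for counting alone, and 32.4% in G2/M members, against 10.6%.

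No member passed the test between EpithelialKO and Flox lungs, in either phase. At an adjusted p under 0.05 in the quasi-likelihood test of edgeR, with Benjamini-Hochberg adjustment over all genes, 0 of the 36 were higher and 0 lower, where 0.0392% of all tested genes passed (6 of 15301), 0.00654% higher and 0.0327% lower. The DESeq2 Wald test also called 0 members (2.21% of all genes with an adjusted p), with a lowest member adjusted p of 0.246, and limma-voom called 0 as well, with 0.189. Among the members given in full, Ccnb1 and Hmmr received no adjusted p from DESeq2 and could not be called by it. At an unadjusted p under 0.05 there was 1 member, Tk1, against 12.4% of all genes. In 0 members did all values of 1 group lie beyond those of the other, against 3.12% of all genes. Fold changes are given as log2 of EpithelialKO over Flox. Their median was 0.03 in S-phase members, with 7 of 11 positive, and 0.01 in G2/M members, with 15 of 25 positive, and was 0.00 over all genes, of which 50.1% were positive. The 22 positive members of 36 became 13 without Flox mouse 5, 15 without Flox mouse 2, 17 without Flox mouse 3 and 28 without Flox mouse 6, and were 18 to 23 without any other mouse. The 95% intervals lay inside a 2-fold change in either direction for 30 of the 36 members and inside a 1.5-fold change for 12, of which 9 were S-phase members. A p that misses the threshold does not show that a member was equal in the groups.

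The sliding clamp Pcna, which tethers DNA polymerases to their template (Entrez 18538, GRCm38 chromosome 2, 132249286 to 132253180), was the most abundant member. It stood at 108, 110.0, 109, 123 and 126 CPM in EpithelialKO mice 17, 18, 20, 21 and 22 and at 104, 119, 91.9, 99.4 and 101 CPM in Flox mice 2, 3, 4, 5 and 6. Apart from Flox mouse 3, every Flox value lay below every EpithelialKO value. The log2 fold change was 0.16 ± 0.09 (SE), with a 95% interval from -0.03 to 0.35 and an edgeR adjusted p of 0.501, so the difference did not pass the test.

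The MCM proteins form the ring of the replicative helicase, and none of its 6 genes passed the test. The 6 Mcm genes summed to 149.8 ± 6.48 CPM in EpithelialKO lungs and 152 ± 18.8 CPM in Flox lungs (SD, n = 5 each). Mcm2 (Entrez 17216, chromosome 6, 88883474 to 88898780) stood at 13.7, 17.1, 14.5, 15.1 and 14.5 CPM in EpithelialKO mice 17 to 22 and at 17.6, 14.1, 13.0, 6.86 and 17.9 CPM in Flox mice 2 to 6. Flox mouse 5 had less than any other mouse, and the groups overlapped (log2 fold change 0.11 ± 0.21, SE, edgeR adjusted p = 0.881). Mcm3 (Entrez 17215, chromosome 1, 20802966 to 20820312) stood at 26.03, 20.8, 24.4, 24.0 and 18.1 CPM in EpithelialKO mice and at 25.7, 26.8, 23.6, 24.96 and 31.4 CPM in Flox mice. Its highest value was that of Flox mouse 6 and its lowest that of EpithelialKO mouse 22 (log2 fold change -0.23 ± 0.13, SE, edgeR adjusted p = 0.505). Mcm7 (Entrez 17220, chromosome 5, 138164583 to 138172111) stood at 32.9, 38.8, 37.6, 38.5 and 39.4 CPM in EpithelialKO mice and at 49.0, 32.8, 33.8, 27.2 and 41.6 CPM in Flox mice. The Flox values spread on both sides of the EpithelialKO values (log2 fold change 0.02 ± 0.14, SE, edgeR adjusted p = 0.975). Mcm4, Mcm5 and Mcm6 had log2 fold changes of -0.09, 0.12 and 0.03, with edgeR adjusted p values of 0.828, 0.864 and 0.946.

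Of the genes for nucleotide supply, the thymidine kinase Tk1, which salvages thymidine (Entrez 21877, chromosome 11, 117815519 to 117826087), showed the lowest p of all members. It stood at 6.67, 2.03, 3.93, 3.30 and 5.35 CPM in EpithelialKO mice 17, 18, 20, 21 and 22, and at 5.77, 6.41, 5.49, 7.79 and 8.03 CPM in Flox mice 2 to 6. All EpithelialKO mice except mouse 17 lay below all Flox mice. The log2 fold change was -0.65 ± 0.29 (SE; 95% interval -1.26 to -0.05), with an unadjusted p of 0.0363 and an edgeR adjusted p of 0.361, and the call was therefore not made. Tyms, the thymidylate synthase of the de novo route (Entrez 22171, chromosome 5, 30038546 to 30073645), stood at 8.94, 11.4, 12.8, 10.2 and 16.5 CPM in EpithelialKO mice and at 11.6, 9.76, 9.94, 8.25 and 12.8 CPM in Flox mice (log2 fold change 0.19 ± 0.19, SE, edgeR adjusted p = 0.734). Rrm2, the regulated subunit of ribonucleotide reductase (Entrez 20135, chromosome 12, 24708254 to 24714146), stood at 5.24, 6.26, 5.12, 4.33 and 6.14 CPM in EpithelialKO mice and at 4.89, 7.55, 6.25, 3.99 and 6.25 CPM in Flox mice (-0.10 ± 0.23, SE, edgeR adjusted p = 0.911). The 3 genes thus had fold changes of both signs and overlapping groups. E2f1, the transcription factor that drives S-phase entry (Entrez 13555, chromosome 2, 154559400 to 154569892), stood at 9.95, 7.09, 11.7, 12.8 and 18.1 CPM in EpithelialKO mice and at 8.98, 14.0, 9.34, 11.7 and 11.7 CPM in Flox mice. Both its highest and its lowest value were in EpithelialKO mice (log2 fold change 0.10 ± 0.22, SE, edgeR adjusted p = 0.905).

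**Figure D2:**
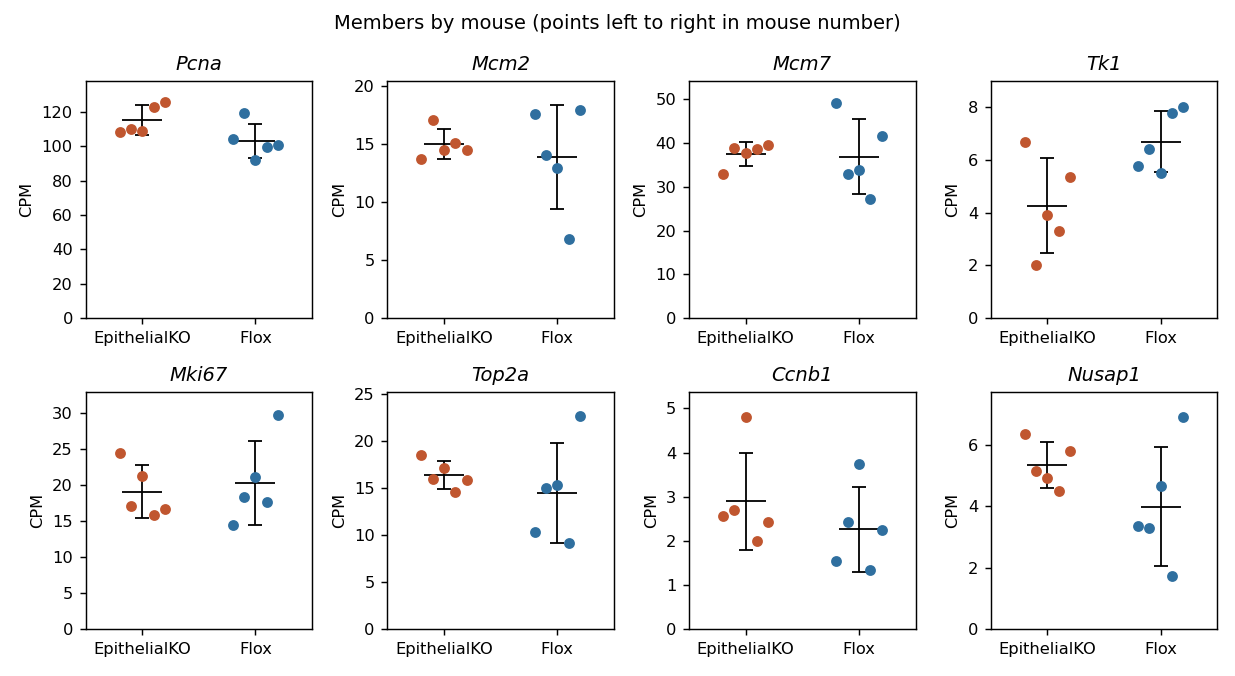
CPM of 8 members in the 5 EpithelialKO mice (left) and the 5 Flox mice (right), with 1 point per mouse and bars for mean ± SD. The groups overlap in all 8 panels, and Flox mouse 6, the last Flox point, is the highest mouse for Mki67, Top2a and Nusap1.

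Among the G2/M members the proliferation antigen Mki67, which coats mitotic chromosomes (Entrez 17345, chromosome 7, 135689784 to 135716450), was the most abundant in CPM. It stood at 24.5, 17.0, 21.3, 15.8 and 16.7 CPM in EpithelialKO mice 17 to 22 and at 14.4, 18.4, 21.1, 17.6 and 29.8 CPM in Flox mice 2 to 6. The highest and the lowest value were both in Flox mice (log2 fold change -0.09 ± 0.19, SE, 95% interval -0.48 to 0.31, edgeR adjusted p = 0.894). Top2a, the topoisomerase that disentangles sister chromatids (Entrez 21973, chromosome 11, 98992947 to 99024199), stood at 18.5, 16.0, 17.2, 14.6 and 15.8 CPM in EpithelialKO mice and at 10.3, 14.98, 15.3, 9.12 and 22.7 CPM in Flox mice. As for Mki67, the Flox values enclosed all EpithelialKO values (log2 fold change 0.18 ± 0.21, SE, edgeR adjusted p = 0.779). Foxm1, the transcription factor of the late cell cycle (Entrez 14235, chromosome 6, 128362994 to 128375886), stood at 2.38, 2.42, 3.74, 2.81 and 3.78 CPM in EpithelialKO mice and at 2.33, 3.61, 4.94, 2.40 and 5.28 CPM in Flox mice. Its 2 highest values were those of Flox mice 4 and 6 (log2 fold change -0.30 ± 0.32, SE, edgeR adjusted p = 0.752).

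Nusap1, a microtubule-bundling spindle protein (Entrez 108907, chromosome 2, 119618298 to 119650165), had the lowest p of the G2/M members. It stood at 6.38, 5.17, 4.93, 4.49 and 5.80 CPM in EpithelialKO mice and at 3.35, 3.29, 4.67, 1.73 and 6.91 CPM in Flox mice. Flox mouse 6 was above all EpithelialKO mice and the other Flox mice lay at their lower end or below (log2 fold change 0.42 ± 0.31, SE, unadjusted p = 0.193, edgeR adjusted p = 0.619). Ccnb1, the cyclin that activates Cdk1 at mitotic entry (Entrez 268697, chromosome 13, 100778739 to 100786486), stood at 2.56, 2.69, 4.81, 2.00 and 2.42 CPM in EpithelialKO mice and at 1.54, 2.43, 3.75, 1.33 and 2.24 CPM in Flox mice (0.36 ± 0.37, SE, edgeR adjusted p = 0.745). Hmmr, a spindle assembly factor and the least abundant member in CPM (Entrez 15366, chromosome 11, 40701388 to 40733464), stood at 1.61, 1.32, 1.56, 1.24 and 2.09 CPM in EpithelialKO mice and at 1.02, 2.05, 1.79, 1.46 and 3.30 CPM in Flox mice (-0.30 ± 0.41, SE, edgeR adjusted p = 0.813). Both had overlapping groups.

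The other 19 G2/M members had log2 fold changes between -0.24 for the mitotic kinase Plk1 and 0.22 for Ect2, the exchange factor that activates RhoA for cytokinesis. The kinase Cdk1 and its cyclins Ccna2 and Ccnb2 had log2 fold changes of 0.01, 0.03 and 0.08. The kinases Aurka, Aurkb, Bub1 and Bub1b, which act on the spindle, the chromosomal passenger complex and the spindle checkpoint, had 0.04, 0.05, 0.13 and -0.01. The motor proteins Kif11, Kif20a, Kif23 and Cenpe had -0.01, 0.11, -0.01 and -0.16. Cdc20 and Ube2c, a coactivator and the ubiquitin-conjugating enzyme of the anaphase-promoting complex, had -0.15 and -0.12. The spindle proteins Tpx2 and Prc1 had 0.00 and 0.03, the passenger protein Birc5 had 0.01, and the kinetochore protein Cenpf had 0.11. The widest 95% interval among G2/M members was that of Cenpf, from -0.82 to 1.03, while the lowest limit was -1.16 for Hmmr and the highest 1.14 for Ccnb1.

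**Figure D3:**
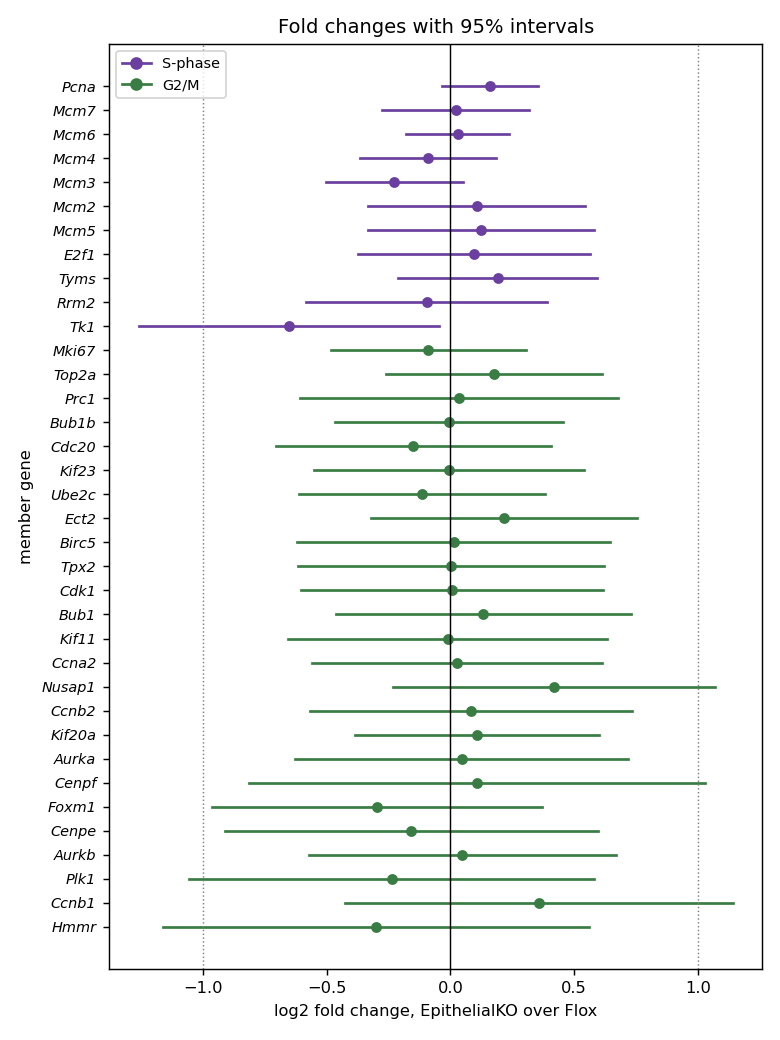
Log2 fold change of EpithelialKO over Flox for the 36 members, with 95% intervals from the edgeR fit; dotted lines mark a 2-fold change. All intervals except that of Tk1 include 0, and 30 of 36 lie between the dotted lines.

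The 2 phases were then compared within each mouse, without a test, since the members were proposed with results of these data known. The 11 S-phase members summed to 283, 290, 302, 298 and 319.5 CPM in EpithelialKO mice 17 to 22 and to 304.5, 303, 269, 257 and 311 CPM in Flox mice 2 to 6. The 25 G2/M members summed to 157.5, 133, 152, 138 and 143 CPM in EpithelialKO mice and to 112.5, 132.5, 142, 116.5 and 208 CPM in Flox mice. The S-phase mean was 299 ± 13.7 CPM in EpithelialKO and 289 ± 23.99 CPM in Flox lungs, and the G2/M mean 145 ± 9.96 CPM in EpithelialKO and 142 ± 38.45 CPM in Flox lungs (SD, n = 5 each). Flox mouse 6 stood above all other mice in the G2/M sum, while in the S-phase sum, of which Pcna is the largest term, it lay within the range of the EpithelialKO mice. The ratio of the S-phase sum to the G2/M sum was 1.80, 2.18, 1.99, 2.16 and 2.24 in EpithelialKO mice and 2.71, 2.28, 1.89, 2.21 and 1.5 in Flox mice. Flox mice 2 and 6 thus held both ends of the ratio, and all EpithelialKO mice lay between them.

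As a level that gives each member equal weight, the mean log2 CPM was 2.31 ± 0.09 in EpithelialKO and 2.24 ± 0.365 in Flox lungs for G2/M, and 4.15 ± 0.11 in EpithelialKO and 4.18 ± 0.18 in Flox lungs for S phase (SD, n = 5 each). The S-phase level minus the G2/M level was 1.84 ± 0.10 log2 units in EpithelialKO and 1.94 ± 0.27 in Flox lungs. On this scale Flox mouse 6 was the highest of the 10 mice in S phase as well, at 4.38 against at most 4.30 in EpithelialKO mice. With all mice, each of these 3 differences between the groups was smaller than the SD among Flox mice. The EpithelialKO minus Flox difference of the G2/M level was 0.06 with all mice, 0.21 without Flox mouse 6, and -0.01 without Flox mouse 2 or without Flox mouse 5. It was 0.06 without Flox mouse 3 and 0.08 without Flox mouse 4. Without Flox mice 4 and 6, whose G2/M levels were the highest of the Flox group, it was 0.28. That is above the SD of 0.16 among the 3 remaining Flox mice.

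**Figure D4:**
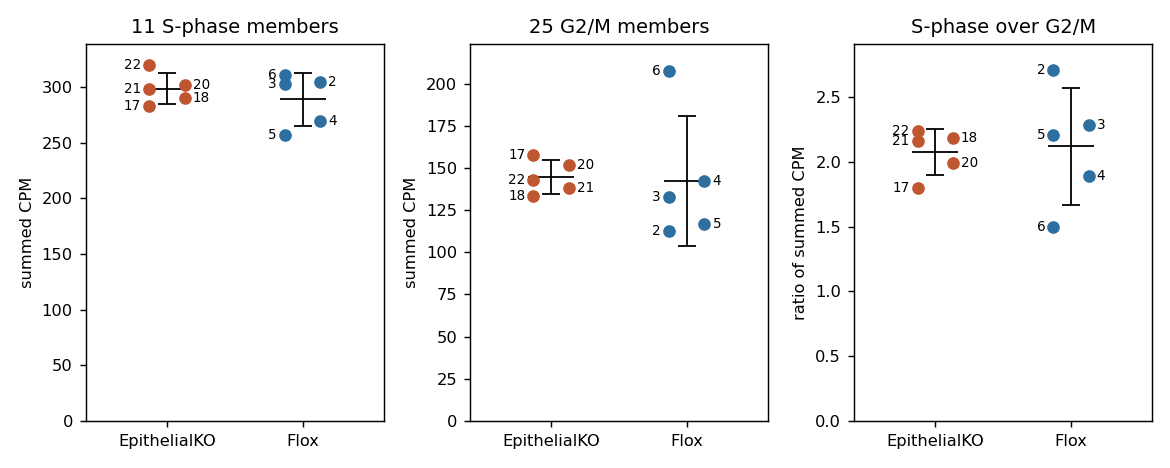
Summed CPM of the 11 S-phase members, summed CPM of the 25 G2/M members and their ratio in EpithelialKO (left) and Flox (right) mice, numbered by mouse, with bars for mean ± SD. Flox mouse 6 stands at 208 CPM in G2/M and at a ratio of 1.5, while the EpithelialKO mice lie between 133 and 157.5 CPM and between 1.80 and 2.24.

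The G2/M members varied more across the mice than the S-phase members, and many G2/M members had their extremes in the same few mice. The highest G2/M sum was 1.85 times the lowest, against 1.24 times for S phase, and the G2/M value was 1.40 without Flox mouse 6. The S-phase sum is weighted by Pcna, whose highest value was 1.37 times its lowest, and the Mcm sum ran from 126 to 171 CPM. As mean log2 CPM, S-phase levels ran from 3.91 to 4.38 and G2/M levels from 1.93 to 2.82. Without Flox mouse 6 their highest values were 4.30 and 2.42. Flox mouse 6 was the highest of the 10 mice for 17 of 25 G2/M members and above the mean of all mice for 23, against 9.8% and 51.2% of all tested genes. Flox mice 2 and 5 together were the lowest for 17 of the 25, against 24.8% of all genes. In S phase, Flox mouse 6 was the highest for 4 of 11 members and Flox mouse 5 the lowest for 5. Flox mouse 2 was the lowest for 0 of the 11. Of 51 other mitotic genes, which the choice of members did not include, Flox mouse 6 was the highest for 13 and above the mean for 44. Of 35 other replication genes tested, it was the highest for 6 and above the mean for 25.

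The SD of CPM was larger in Flox than in EpithelialKO mice for 18 of 25 G2/M members, against 48.7% of all genes. Without Flox mouse 6 this held for 14 of 25, and the SD of the Flox G2/M sum was 13.9 CPM around a mean of 126 CPM. The difference in spread was not tested. Flox mouse 6 also had the highest summed CPM of endothelial (3891), fibroblast (1127) and mesothelial (554) markers. It had the lowest of club cell markers (22060 CPM), ciliated cell markers (577 CPM) and plasma cell markers (442 CPM). Its T cell, B cell and neutrophil marker sums (98.6, 143 and 282 CPM) lay within the range of the other Flox mice or, for B cells, below it. Their part in the G2/M level was not tested.

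**Figure D5:**
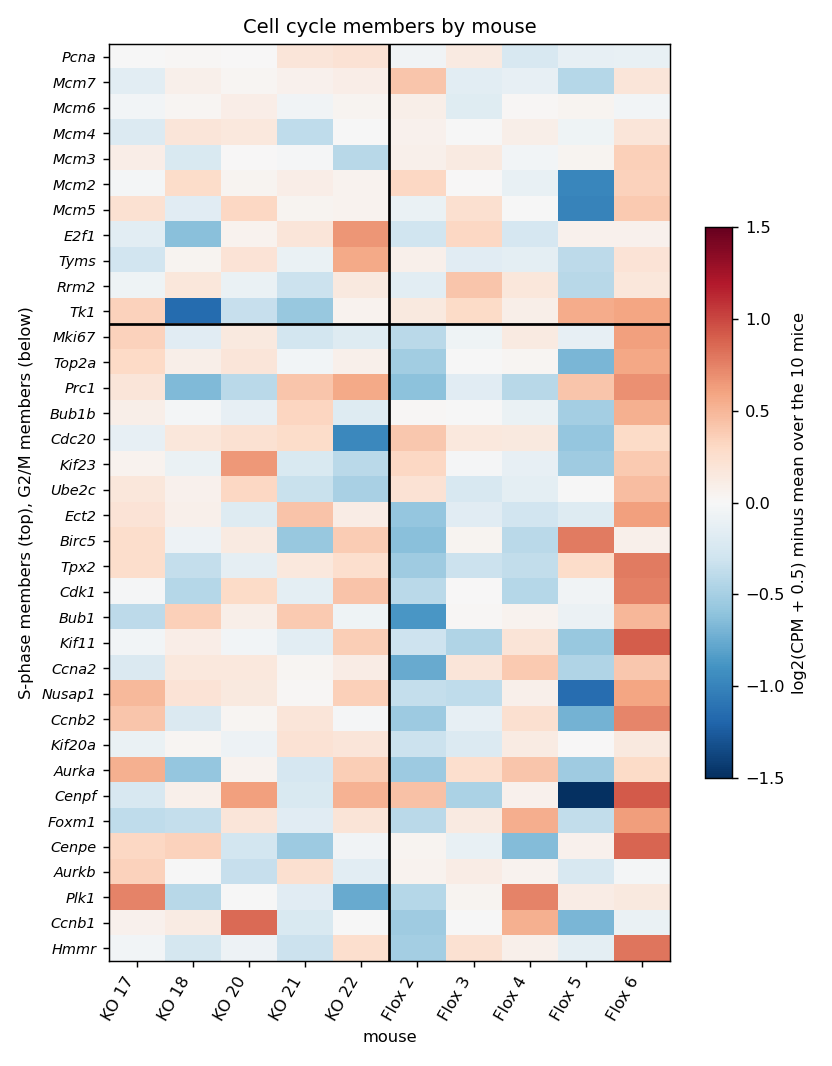
Log2(CPM + 0.5) of each member minus its mean over the 10 mice, with EpithelialKO mice on the left and Flox mice on the right, S-phase members above the line and G2/M members below it. The column of Flox mouse 6 is red for nearly all G2/M members, the columns of Flox mice 2 and 5 are mostly blue, and the EpithelialKO columns are mixed.

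Because Flox mice 4 and 6 were the ones with high Xist counts, the members were also compared without them. The median log2 fold change of the G2/M members was then 0.22, with 21 of 25 positive, where 50.5% of all genes were, and that of the S-phase members 0.04, with 7 of 11 positive. The G2/M sum averaged 145 CPM in the 5 EpithelialKO mice and 120.5 ± 10.6 CPM in the 3 remaining Flox mice (SD, n = 3). All 5 EpithelialKO sums lay above all 3 Flox sums, but Flox mice 4 and 6 had held the highest Flox sums (142 and 208 CPM). The ranges nearly met, at 133.1 CPM in EpithelialKO mouse 18 and 132.5 CPM in Flox mouse 3. By mean log2 CPM, 4 of the 5 EpithelialKO mice lay above all 3 Flox mice. No member passed in edgeR (lowest adjusted p = 0.526, for Nusap1), and 0 of all genes did. At an unadjusted p under 0.05 there were 2 members, Nusap1 (log2 fold change 0.93 ± 0.33, SE) and Top2a (0.52 ± 0.20, SE), or 2 of 36 against 7.68% of all genes. The groups did not overlap for 2 members, Nusap1 and Kif11, against 5.97% of all genes. These mice were left out after their counts had been seen, and the part of sex in the G2/M level was not tested.

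Other genes of the cell cycle, taken as lists by function, also held no called gene. Of 35 other replication genes tested, 51 other mitotic genes, 9 cyclins and kinases of G1, 7 CDK inhibitors and 18 genes of the RB, E2F and DREAM complexes, 0 were higher and 0 lower at an edgeR adjusted p under 0.05. At an unadjusted p under 0.05 there were 1, 1, 2, 0 and 0 genes in these lists, against 12.4% of all genes. The median log2 fold changes were -0.07, -0.01, 0.07, -0.01 and 0.05.

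The genes of lowest unadjusted p in each list are given next. None was called, and only Ccne1, Ccnd1, Smc4 and Chaf1a had an unadjusted p under 0.05. Ccne1, the cyclin E that activates Cdk2 at the start of S phase, averaged 1.40 ± 0.683 CPM in EpithelialKO and 3.15 ± 1.01 CPM in Flox lungs (SD, n = 5 each; log2 fold change -1.17 ± 0.40, SE, edgeR adjusted p = 0.243), and all 5 EpithelialKO mice lay below the Flox mean. Ccnd1, the cyclin D that links growth signals to the cycle, averaged 354 ± 27.1 CPM in EpithelialKO and 305 ± 30.8 CPM in Flox lungs (0.21 ± 0.09, SE, edgeR adjusted p = 0.361), with all 5 EpithelialKO mice above the Flox mean. Cdc25a, the phosphatase that activates these kinases, had -0.32 ± 0.16 (SE). Smc4, a condensin subunit, averaged 82.8 ± 10.6 CPM in EpithelialKO and 68.2 ± 3.48 CPM in Flox lungs (0.28 ± 0.10, SE, edgeR adjusted p = 0.257). The histone chaperone subunit Chaf1a averaged 6.51 ± 1.06 CPM in EpithelialKO and 9.24 ± 1.77 CPM in Flox lungs (-0.50 ± 0.20, SE, edgeR adjusted p = 0.305). Rfc4 and Fen1, of the clamp loader and of Okazaki fragment processing, had 0.33 ± 0.18 and 0.29 ± 0.17 (SE), and the mitotic genes Kif4 and Ncaph had -0.59 ± 0.37 and -0.33 ± 0.21 (SE).

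The CDK inhibitor Cdkn1a, a target of p53 that holds cells in G1, averaged 139.7 ± 44.65 CPM in EpithelialKO and 156 ± 82.7 CPM in Flox lungs (SD, n = 5 each; log2 fold change -0.16 ± 0.39, SE, edgeR adjusted p = 0.914). Cdkn2c, Cdkn1b and Cdkn2b, other CDK inhibitors, had -0.30 ± 0.20, 0.14 ± 0.11 and 0.16 ± 0.15 (SE). Of the RB, E2F and DREAM list, E2f5 was the 1 gene of 18 whose groups did not overlap, against 3.12% of all genes, at 18.5 ± 1.06 CPM in EpithelialKO and 15.5 ± 1.083 CPM in Flox lungs (0.26 ± 0.12, SE, edgeR adjusted p = 0.417), without passing. The pocket protein Rbl2 and the histone-binding Rbbp4 had -0.19 ± 0.13 and 0.11 ± 0.08 (SE).

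Some cell type markers stood at different levels in the groups, without a called gene among them. Endothelial markers summed to 2209 to 2873 CPM in EpithelialKO and 2973 to 3891 CPM in Flox lungs, and fibroblast markers to 689 to 747 CPM in EpithelialKO and 803 to 1127 CPM in Flox lungs, with no overlap in either list. AT2 markers summed to 49340 to 61000 CPM in EpithelialKO and 41120 to 49290 CPM in Flox lungs, also without overlap though the ranges nearly met. Of the 7 endothelial, 7 fibroblast and 8 AT2 markers, 0 passed over all genes, and 7, 5 and 5 had an unadjusted p under 0.05, against 12.4% of all genes. Fold changes were positive for 5 of 5 club cell, 5 of 5 ciliated cell and 3 of 3 tested adipocyte markers. They were negative for 5 of 5 smooth muscle and 4 of 4 mesothelial markers. Among immune lists they were negative for 6 of 6 T cell, 5 of 5 natural killer cell and 5 of 5 B cell markers. The same held for 5 of 5 neutrophil and 2 of 2 tested thymocyte markers. Other immune lists were mixed, with 4 of 5 plasma cell and 3 of 4 tested germinal centre B cell markers positive. Of alveolar macrophage markers 3 of 6 were positive, as were 3 of 6 of monocytes and interstitial macrophages. Of all genes, 50.1% were positive. None of these markers was called. Summed markers of germinal centre B cells, erythroid precursors and thymocytes, lineages that divide, overlapped between the groups. Of these markers, 4 of 5, 6 of 9 and 2 of 5 passed the filter, and 1 erythroid marker alone held 436921 counts over all mice. The sums therefore do not measure the number of dividing cells. The part of these markers in the members' values was not tested.

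Some counts may include reads of other genes, since the counting of multi-mapping and overlapping reads is not given. GENCODE lists a pseudogene at least 90% identical over at least 400 bases for 12 of the 36 members, among them Ccnb1, Pcna, Mcm7, Tyms and Rrm2. Exons of another gene overlap those of 10 members, and the overlap covers at least 10% of the exons of 5, Ccna2, Kif20a, Mcm7, Prc1 and Ube2c. Values of these members are uncertain to that extent.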

How the data were processed

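The authors deposited raw gene counts, whole numbers in 1 column for each of the 10 mice, keyed by Entrez identifiers. The submitters' processing notes name cutadapt for trimming, HISAT2 for alignment and the GRCm38 build. No version, counting program, annotation or strand setting is named in the labels. Trizol extracts were enriched for mRNA on oligo(dT) beads and copied from random hexamers, per the labels' protocols.

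Symbols and coordinates came from RefSeq (GRCm38.p6) and exon lengths from GENCODE M21. After filterByExpr and TMM scaling, the counts went into the quasi-likelihood test of edgeR 4.0.16 in R 4.3.3 (group as the only term, Benjamini-Hochberg adjustment over 15301 genes, threshold 0.05); the fit was tested on simulated data. CPM use TMM-scaled library sizes, and log2 levels a prior count of 2. Each library is a separate animal, and none repeated another (chi-square over degrees of freedom of 18.1 or more for every pair). Library totals were 14983829 to 21224412 counts, and for every member the spread between mice exceeded counting error.

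Values of every mouse are given for Mki67, Top2a, Pcna, Mcm2, Foxm1 and E2f1 and, per phase, for the 4 members of lowest p and the 2 of highest and of lowest CPM. Group means or fold changes are given for up to 3 genes of lowest p from each other list, Ccnd1, Cdkn1a and, as the targeted gene, Ern1. The members and lists were chosen with earlier results of these data known. Alternatives were other scalings, filters and tests (DESeq2 1.42.0, limma 3.58.1) and leaving out mice. Similar pseudogenes were found with blastn 2.17.0.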

Additional observations from a re-analysis of the deposited data

Results flagged for a closer look

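In 72 groups of 5 values, 1 for each member and genotype, and in 6 groups of phase levels, 4 held a mouse set apart from the other 4 by more than the 95% limit of Dixon's test. Chance alone marks about 1 in 20 such groups. Cdk1 stood at 8.53 CPM in Flox mouse 6, with 3.48 to 4.85 CPM in the other Flox mice, and Ect2 stood at 9.04 CPM in the same mouse, with 3.68 to 5.01 CPM in the others. Ccnb1 stood at 4.81 CPM in EpithelialKO mouse 20, with 2.00 to 2.69 CPM in the other EpithelialKO mice. Mcm7 stood at 32.9 CPM in EpithelialKO mouse 17, with 37.6 to 39.4 CPM in the others.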

How the results depend on the processing

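The count of 0 members called held in all 17 alternatives: 2 other scalings, 2 other filters, DESeq2, limma-voom with sample weights, and the fits without 1 mouse or without Flox mice 4 and 6. The lowest member adjusted p over them was 0.189, for Tk1 in limma-voom. DESeq2 gave no adjusted p for Ccnb1 and Hmmr. The number of all genes called was 6, and it was 34 without a filter, 279 in DESeq2, 29 in limma-voom and 0 without Flox mice 4 and 6, and ran from 0 to 48 when 1 mouse was left out (48 without Flox mouse 5, 0 without any other). For these numbers the cause was not tested. With 1 mouse left out, the median log2 fold change of the G2/M members ran from -0.08 to 0.16 and that of the S-phase members from -0.06 to 0.07. The EpithelialKO minus Flox difference of the S-phase level was -0.03 as a mean over members and 0.13 as a median over members, and that of the S-phase minus G2/M level was -0.09 and 0.05. Among the members given in full, none of them called, these changed sign when 1 mouse was left out: Rrm2 (-0.20 to 0.0173), Mcm7 (-0.0702 to 0.15), Mcm2 (-0.0619 to 0.21), Mki67 (-0.195 to 0.0922) and E2f1 (-0.10 to 0.24). The signs of the other members were followed only through the count of positive fold changes given above. Without Flox mice 4 and 6, Mki67 had 0.18, Hmmr 0.0514 and Foxm1 0.12. No paired analysis was possible because no mouse number occurs in both groups. Counts of G2/M members went down to 10 per mouse and their standard errors up to 0.44, and their spread between mice (median 32.4%) exceeded counting error (10.6%).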
